A study of Mus musculus with 25 samples.

Results

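Amino acid and peptide transporters were taken as every gene whose symbol belongs to the solute carrier families Slc1a, Slc3a, Slc6a, Slc7a, Slc15a, Slc36a, Slc38a or Slc43a. RefSeq lists 66 mouse genes under this rule. Of these, 59 had a probe set that the platform annotation assigns to 1 gene, and the other 7 were not analysed here. The 59 transporters were read among 17097 genes on 25 arrays. A filter that left out the 30% of genes with the lowest mean signal kept 41 of the 59, among 11968 genes in all. The rule used names and no measured value.

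Each array held polysomal RNA from kidney podocytes, collected by translating ribosome affinity purification (TRAP), in which ribosomes that carry a green fluorescent tag are pulled out of tissue with an antibody. The tag was the fusion Col1a1-eGFPL10a, driven by a collagen 1α1 promoter and enhancer element, and every mouse carried it, so that KI and WT mice differ by the Actn4 allele. KI mice were Actn4+/tm1.1Plk, which carry a point mutation of α-actinin-4 (Actn4), an actin crosslinker of the podocyte foot process whose mutation causes a human kidney disease, focal segmental glomerulosclerosis, and WT mice had no such allele, all on a C57/129sv background. The groups were KI and WT at 2 weeks (4 and 4 arrays), KI and WT at 5 weeks (4 and 5 arrays) and KI and WT at 44 weeks (4 and 4 arrays). Nothing in the labels says whether an array is 1 mouse or a pool, so the spread between arrays may be partly technical. All values below are the deposited log2 signals, in the order of the array numbers, and a fold change is a difference of group means on that scale, given as the value ± its standard error. A gene was called changed at an adjusted p under 0.05 in limma, adjusted over all 11968 genes by the Benjamini-Hochberg method.

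Amino acids that pass the glomerular filter are taken back by the proximal tubule, where sodium-driven carriers and exchangers in the brush border load the cell and basolateral exchangers release the amino acids to the blood. Several of these carriers work only as pairs of a heavy subunit (Slc3a1 or Slc3a2) and a light subunit of the Slc7a family. Other members serve every cell: plasma membrane importers that amino acid shortage can induce, and lysosomal carriers that feed or inform the growth kinase mTORC1. Podocytes, on the other side of the filter, are not known for brush border transport. In bulk RNA of this kind, fewer cells of a type and less RNA per cell cannot be told apart.

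The 11 podocyte markers measured averaged between 11.09 and 11.84 on the 25 arrays. The 16 proximal tubule markers measured averaged between 8.92 and 10.83. The filter kept 15 of these 16, and calls and medians of proximal tubule markers refer to the 15. WT array 1 at 2 weeks stood apart from its group. Of the 1638 genes called between 5 and 2 weeks in KI mice, its signal lay nearer to the WT 5-week mean than to the mean of the other WT 2-week arrays for 996 (60.8%), against 11.6% to 12.5% on WT arrays 2, 3 and 5. Of the 8 brush border transporters kept, 6 had their lowest WT 2-week signal on that array. Its proximal tubule marker mean was 8.96, beside 9.04 to 9.47 on the other WT 2-week arrays. Of the 15 proximal tubule markers kept 6 were lowest on it, and their median difference from the mean of the other WT 2-week arrays was 0.06. Its podocyte marker mean was 11.65, beside 11.28 to 11.31 on those arrays. WT changes between 2 and 5 weeks include this array unless a value without it is given. WT arrays 7, 8 and 9 at 5 weeks read 6.69 to 7.22 for the mean of 6 mesangial and smooth muscle markers, against 8.17 and 8.27 on WT arrays 6 and 10. The labels give no sex. The mean of 3 Y-linked genes was 7.26 or more on 14 arrays and 3.69 or less on 11, with high signal on 1 of 4 KI and 4 of 4 WT arrays at 2 weeks, 3 of 4 KI and 2 of 5 WT arrays at 5 weeks, and 3 of 4 KI and 1 of 4 WT arrays at 44 weeks.

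Most of the called changes in this family lay between 2 and 5 weeks, and most of those were losses. In KI mice 12 of the 41 transporters fell and 1 rose, where 8.29% of all genes fell and 5.4% rose (13.7% called). In WT mice 13 fell and 4 rose, where 21.7% of all genes fell and 12.2% rose (33.9% called). Of these, 8 fell in both genotypes: Slc1a1, Slc1a5, Slc38a3, Slc3a1, Slc6a13, Slc6a17, Slc6a18 and Slc7a9. The median log2 fold change of the 41 was -0.22 in KI and -0.20 in WT, against 0.02 in KI and -0.06 in WT over all genes. The 2-week and 5-week arrays did not overlap for 17 of the 41 in KI and 5 in WT. Over all genes the shares without overlap were 25.2% in KI and 16.7% in WT. Leaving out WT arrays 7, 8 and 9 at 5 weeks together cut the WT calls to 4 losses (Slc38a3, Slc3a1, Slc6a13 and Slc6a18). Only WT arrays 6 and 10 then remained at 5 weeks, so that precision was lower as well. Among the lost calls the fold changes of Slc6a19, Slc7a7 and Slc1a7 did not shrink. Those of the other lost calls did, by differing amounts, such as to -1.38 for Slc1a1 and to -0.24 for Slc43a3. Leaving out WT array 1 at 2 weeks raised the WT calls to 16 losses and 4 gains.

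Among the brush border carriers the subunits of the cystine and dibasic amino acid exchanger fell together. Slc3a1 encodes its heavy subunit, rBAT, and Slc7a9 its light subunit, b0,+AT. For Slc3a1 the 2-week arrays gave 11.78, 11.71, 11.96 and 11.52 in KI and 9.38, 11.43, 12.05 and 11.56 in WT. Slc3a1 at 5 weeks gave 10.11, 9.82, 9.63 and 10.02 in KI and 9.60, 9.14, 9.40, 9.29 and 9.56 in WT. Slc3a1 at 44 weeks gave 10.01, 10.29, 10.32 and 9.97 in KI and 10.41, 9.32, 9.76 and 10.16 in WT. All KI and WT arrays at 2 weeks, except WT array 1, lay above every later array. Slc3a1 fell in KI (-1.85 ± 0.35, adjusted p = 0.00165) and in WT (-1.71 ± 0.34, adjusted p = 0.000659). Without WT array 1 the WT difference was -2.28 (adjusted p = 5.06e-08).

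Slc7a9 ranged at 2 weeks over 9.33 to 9.89 in KI and 7.65 to 9.84 in WT, at 5 weeks over 8.07 to 8.60 in KI and 7.73 to 8.63 in WT, and at 44 weeks over 8.63 to 9.07 in KI and 8.04 to 8.91 in WT. It fell in KI (log2 fold change -1.35 ± 0.33, adjusted p = 0.00887) and in WT (-0.87 ± 0.31, adjusted p = 0.0347), and without WT array 1 the WT value was -1.36. The WT call was lost on leaving out any 1 of WT arrays 2, 3, 5, 7, 8 or 9 (-0.88 to -0.63, adjusted p 0.0517 to 0.15). Because Slc3a1 was high in every 2-week array but 1 and low in every array after that, the sequence at its start is shown. The RefSeq promoter of Slc3a1 (GRCm38.p6, chr17:85028097-85028396, plus strand, 300 bases around the start) held neither of the motifs searched on both strands, TGATGNAA, the amino acid response element read by ATF4, and GTTAATNAT, the conserved part of the HNF1 site; N is any base.
Slc3a1: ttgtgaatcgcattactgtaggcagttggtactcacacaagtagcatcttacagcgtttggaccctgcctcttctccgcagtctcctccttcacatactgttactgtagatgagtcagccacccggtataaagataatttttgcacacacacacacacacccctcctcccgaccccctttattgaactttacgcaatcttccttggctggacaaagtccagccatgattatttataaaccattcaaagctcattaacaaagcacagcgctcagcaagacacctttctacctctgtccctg

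Slc1a1 (EAAT3), which takes up glutamate, aspartate and cystine, showed the same step. Slc1a1 read 11.45, 11.44, 11.51 and 11.38 in KI and 8.41, 11.68, 11.56 and 11.29 in WT arrays at 2 weeks. At 5 weeks Slc1a1 read 9.67, 9.53, 8.98 and 9.56 in KI and 9.67, 9.18, 8.72, 8.95 and 9.03 in WT arrays, and at 44 weeks 9.60, 10.05, 10.23 and 9.61 in KI and 10.47, 8.61, 9.12 and 9.63 in WT arrays. Apart from WT array 1, every 2-week array lay above every later one. The change of Slc1a1 between 2 and 5 weeks was -2.01 ± 0.49 in KI (adjusted p = 0.00865) and -1.62 ± 0.46 in WT (adjusted p = 0.00972), or -2.40 in WT without array 1 (adjusted p = 2.71e-06). Slc6a18 (B0AT3), a brush border carrier of glycine and alanine in the mouse, fell further. For Slc6a18 the 2-week arrays gave 10.03, 9.91, 10.36 and 9.55 in KI and 6.50, 9.62, 10.39 and 9.90 in WT. Slc6a18 at 5 weeks gave 7.53, 7.33, 7.34 and 7.17 in KI and 6.68, 6.97, 6.10, 7.40 and 6.82 in WT. Slc6a18 at 44 weeks gave 8.14, 7.82, 7.90 and 8.03 in KI and 7.92, 7.27, 8.06 and 8.13 in WT. Slc6a18 fell in KI (-2.62 ± 0.51, adjusted p = 0.00178) and in WT (-2.31 ± 0.48, adjusted p = 0.00104), with -3.17 in WT without array 1. The 44-week KI arrays lay above all 5-week KI arrays, and the WT arrays of those ages overlapped. Slc15a2 (PEPT2), the high-affinity peptide carrier, ranged at 2 weeks over 9.62 to 10.64 in KI and 8.22 to 10.61 in WT, and at 5 weeks over 7.84 to 8.92 in KI and 8.11 to 9.51 in WT. It fell in KI (-1.57 ± 0.47, adjusted p = 0.0301), and the WT difference of -0.92 ± 0.45 had an adjusted p of 0.119, or 0.0171 without array 1. The KI call was lost without KI array 20, 21, 22, 23, 24 or 25 (-1.65 to -1.32, adjusted p 0.0503 to 0.105). The mean of its probe sets gave -2.60 in KI (adjusted p = 0.00144).

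Slc6a19 (B0AT1), the main sodium-driven importer of neutral amino acids in the early proximal tubule, moved the other way. Slc6a19 read 7.06, 6.30, 6.69 and 6.60 in KI and 5.38, 5.06, 6.21 and 6.62 in WT arrays at 2 weeks. At 5 weeks Slc6a19 read 8.23, 7.27, 7.75 and 7.30 in KI and 7.77, 6.61, 7.25, 6.93 and 7.15 in WT arrays, and at 44 weeks 8.41, 8.19, 8.84 and 8.00 in KI and 9.22, 6.51, 7.59 and 7.58 in WT arrays. The 5-week KI arrays lay above the 2-week KI arrays, and in WT array 5 at 2 weeks (6.62) reached array 7 at 5 weeks (6.61). Slc6a19 rose in WT (1.32 ± 0.39, adjusted p = 0.0124), and the KI difference of 0.98 ± 0.41 did not pass the test (adjusted p = 0.124). Without WT array 2 the WT value was 1.07 (adjusted p = 0.0552), and without array 1 it was 1.17 (adjusted p = 0.0385). Slc36a2 (PAT2), a proton-driven carrier of glycine and proline, changed by 0.14 ± 0.31 in KI and 0.60 ± 0.30 in WT and was not called in either. So of the 8 brush border carriers kept, 5 fell and none rose in KI, and 4 fell and 1 rose in WT. Beside this and the marker counts that follow, 8.29% of all genes fell and 5.4% rose in KI. In WT 21.7% of all genes fell and 12.2% rose. Over the same interval 3 of 15 proximal tubule markers rose and none fell in KI (median 0.55), and 4 of 15 rose and none fell in WT (median 0.11). Of 11 podocyte markers, 5 rose and none fell in KI (median 0.28), and 8 rose and 1 fell in WT (median 0.41). Of 6 mesangial and smooth muscle markers, 1 fell in KI (median -0.11) and 5 fell in WT (median -1.02), and none rose. Of 11 endothelial markers none was called in KI and in WT 1 rose and 2 fell, 1 of 9 leukocyte markers rose and 1 of 2 erythroid markers fell in each genotype, and of 12 distal tubule markers none was called in KI and 1 rose in WT. The part of podocytes and of these other cells in the fall of the carriers was not tested beyond the proximal tubule covariate. With the proximal tubule marker mean as a covariate 6 of the 8 fell in KI, and 5 fell and 1 rose in WT. Without WT array 1, and with no covariate, 6 fell and 1 rose in WT.

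**Figure D1:**
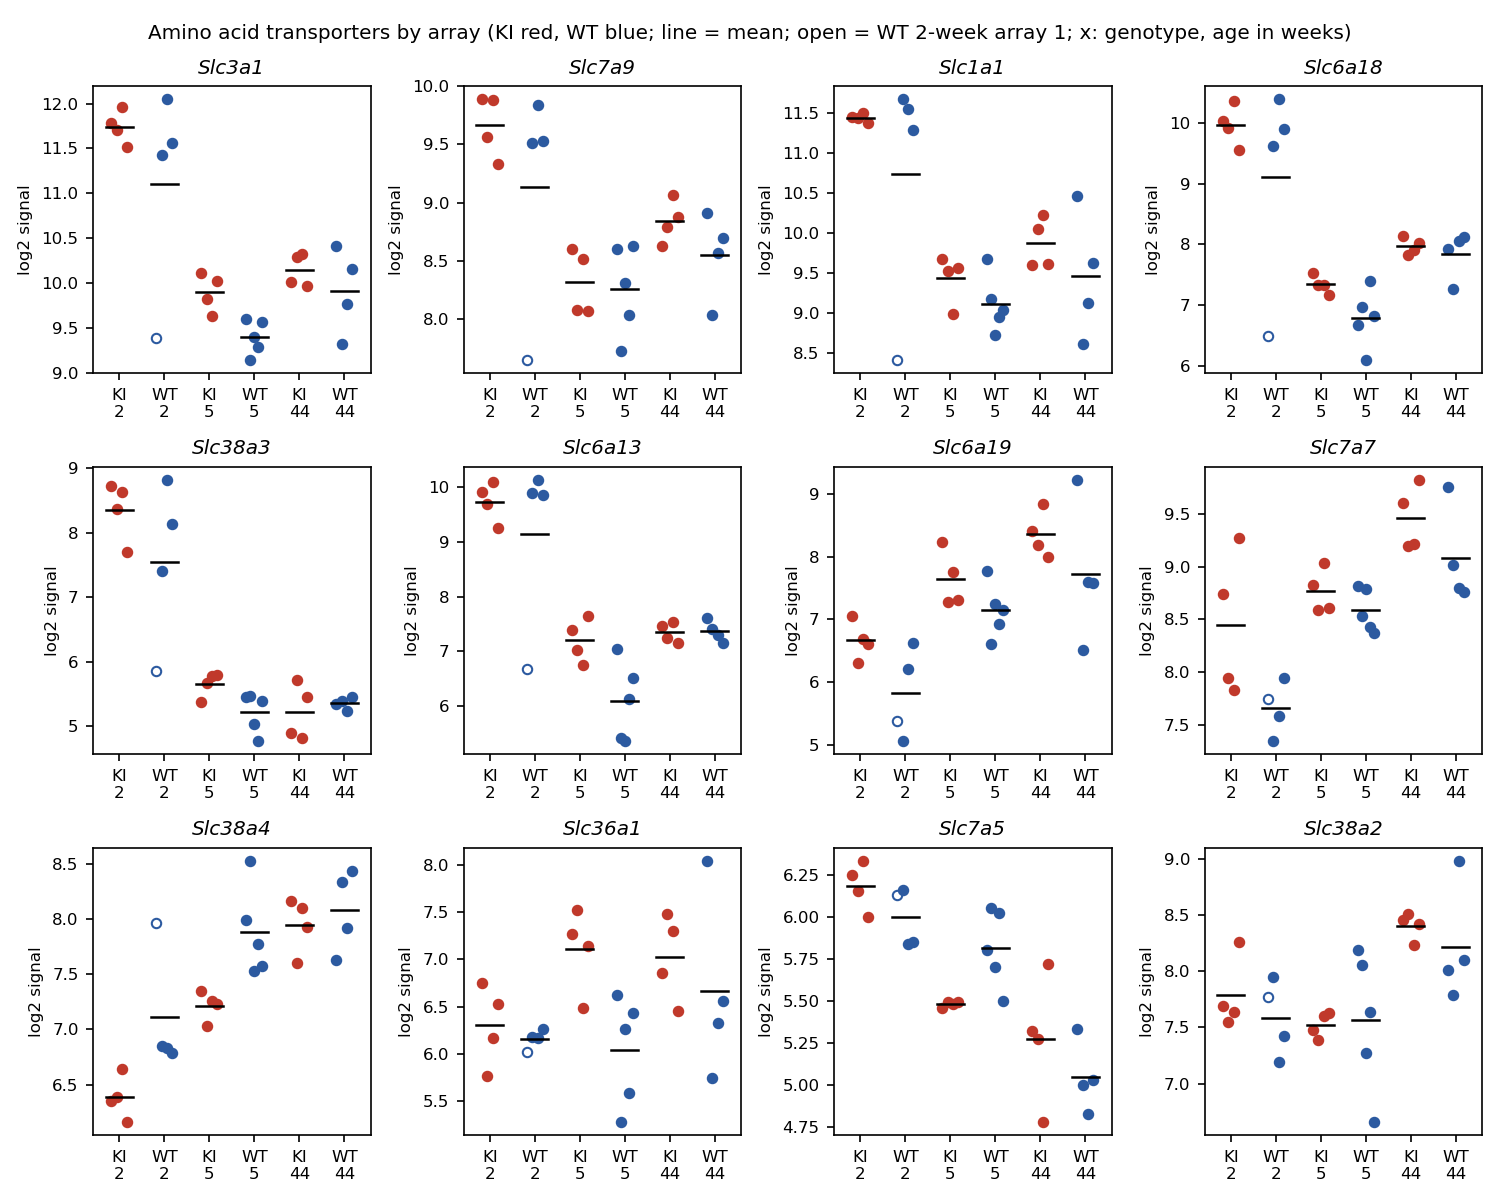
Log2 signal of 12 transporters on all 25 arrays, by genotype and age in weeks. Red points are KI arrays, blue points WT arrays, the open blue point WT array 1 at 2 weeks, and black lines group means. Slc3a1, Slc1a1, Slc6a18, Slc38a3 and Slc6a13 were high on the 2-week arrays other than that one, and Slc38a4 read 6.16 to 6.64 in KI and 6.79 to 7.97 in WT at 2 weeks.

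The next group of 6 kept joins basolateral carriers with carriers of the straight proximal tubule, and is called basolateral below. It holds Slc6a13, Slc7a7, Slc7a8, Slc7a12, Slc38a3 and Slc43a2. Between 2 and 5 weeks 3 of the 6 fell (Slc38a3, Slc6a13 and Slc7a12) and none rose in KI, and 2 fell and 1 rose in WT. Of all genes 8.29% fell and 5.4% rose in KI, and 21.7% fell and 12.2% rose in WT. Slc38a3 (SNAT3), the glutamine carrier of the late proximal tubule, was among those that fell in both. For Slc38a3 the 2-week arrays gave 8.73, 8.37, 8.64 and 7.71 in KI and 5.85, 7.41, 8.82 and 8.14 in WT. Slc38a3 at 5 weeks gave 5.38, 5.67, 5.78 and 5.79 in KI and 5.46, 5.47, 5.04, 4.77 and 5.39 in WT. Slc38a3 at 44 weeks gave 4.90, 5.72, 4.82 and 5.46 in KI and 5.34, 5.39, 5.23 and 5.45 in WT. All 2-week arrays lay above all 5-week arrays. Slc38a3 fell in KI (-2.71 ± 0.39, adjusted p = 0.000183) and in WT (-2.33 ± 0.37, adjusted p = 0.000113), or -2.90 in WT without array 1. The mean of its 2 probe sets gave -1.41 in KI and -1.22 in WT, both still called. Slc6a13 (GAT2), a carrier of GABA and taurine, followed. Slc6a13 read 9.91, 9.69, 10.09 and 9.26 in KI and 6.68, 9.89, 10.13 and 9.86 in WT arrays at 2 weeks. At 5 weeks Slc6a13 read 7.39, 7.03, 6.75 and 7.65 in KI and 7.05, 5.42, 5.36, 6.13 and 6.51 in WT arrays, and at 44 weeks 7.47, 7.24, 7.53 and 7.16 in KI and 7.60, 7.40, 7.29 and 7.16 in WT arrays. All 2-week arrays but WT array 1 lay above all later arrays. Slc6a13 fell in KI (-2.53 ± 0.51, adjusted p = 0.00239) and in WT (-3.05 ± 0.48, adjusted p = 0.000105), and without WT array 1 the WT value was -3.87.

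Slc7a7 (y+LAT1), the exchanger that releases dibasic amino acids to the blood, was higher at 5 than at 2 weeks in WT. Slc7a7 read 8.74, 7.95, 7.83 and 9.27 in KI and 7.75, 7.35, 7.59 and 7.95 in WT arrays at 2 weeks. At 5 weeks Slc7a7 read 8.83, 8.59, 9.03 and 8.61 in KI and 8.82, 8.53, 8.79, 8.43 and 8.37 in WT arrays, and at 44 weeks 9.60, 9.20, 9.21 and 9.82 in KI and 9.75, 9.02, 8.80 and 8.76 in WT arrays. In WT the arrays of the 2 ages did not overlap (0.93 ± 0.25, adjusted p = 0.00606). In KI the change was 0.32 ± 0.26 (adjusted p = 0.455), with KI arrays 19 and 22 already at 8.74 and 9.27 at 2 weeks. Slc7a8 (LAT2) and Slc43a2 (LAT4), which let neutral amino acids out of the cell, were not called, at -0.05 ± 0.29 and 0.84 ± 0.45 in KI and -0.05 ± 0.27 and 0.65 ± 0.43 in WT. Slc7a7 is printed here as the one called transporter with a promoter entry that matched TGATGNAA. That motif stood in 5 of the 62 promoter entries of members (Slc15a5, Slc6a21, Slc7a11 and Slc7a7) and in 1304 of all 32851 (3.969%), and GTTAATNAT in none of the 62 and in 263 of all (0.801%). The entries cover 41 of the 59 members. In the Slc7a7 promoter (GRCm38.p6, chr14:54417895-54418194, minus strand) the capitals mark 2 matches, both on the gene's own strand.
Slc7a7: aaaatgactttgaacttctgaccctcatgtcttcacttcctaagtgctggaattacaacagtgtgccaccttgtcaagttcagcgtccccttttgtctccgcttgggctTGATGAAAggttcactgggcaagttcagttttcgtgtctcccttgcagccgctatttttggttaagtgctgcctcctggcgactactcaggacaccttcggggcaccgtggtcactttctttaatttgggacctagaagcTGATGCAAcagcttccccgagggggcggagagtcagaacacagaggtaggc

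Slc7a13 and Slc7a12 varied widely between arrays of 1 group, along with the Y-linked genes. Slc7a13 (AGT1) carries cystine, aspartate and glutamate in the brush border of the straight proximal tubule and pairs with rBAT, and Slc7a12 (Asc-2) is a related carrier of small neutral amino acids in mouse kidney. Both are known from mouse kidney as genes that differ between males and females. For Slc7a13 the 2-week arrays gave 10.35, 10.08, 10.18 and 10.16 in KI and 6.08, 10.71, 10.86 and 10.32 in WT. Slc7a13 at 5 weeks gave 9.14, 8.90, 5.40 and 9.16 in KI and 8.99, 5.76, 8.51, 4.95 and 4.35 in WT. Slc7a13 at 44 weeks gave 10.35, 10.39, 10.42 and 3.80 in KI and 10.49, 4.71, 4.03 and 4.17 in WT. At 5 and 44 weeks the 9 arrays with high Y-linked signal (KI 23, 24, 26, 31, 32 and 33; WT 6, 8 and 15) read 8.51 to 10.49, and the 8 with low Y-linked signal (KI 25 and 34; WT 7, 9, 10, 16, 17 and 18) read 3.80 to 5.76. At 2 weeks the low-Y arrays (KI 19, 21 and 22) read 10.16 to 10.35 and the high-Y arrays 6.08 to 10.86, the lowest being WT array 1.

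Slc7a12 showed the reverse. Slc7a12 read 11.82, 11.70, 11.80 and 11.68 in KI and 8.38, 11.68, 11.78 and 11.41 in WT arrays at 2 weeks. At 5 weeks Slc7a12 read 6.57, 5.29, 10.32 and 6.27 in KI and 7.54, 10.44, 6.22, 10.37 and 9.73 in WT arrays, and at 44 weeks 7.22, 9.46, 8.21 and 10.35 in KI and 7.66, 10.54, 11.70 and 10.80 in WT arrays. At 5 and 44 weeks it read 5.29 to 9.46 on the 9 high-Y arrays and 9.73 to 11.70 on the 8 low-Y arrays. At 2 weeks it read 11.68 to 11.82 on the low-Y and 8.38 to 11.78 on the high-Y arrays. No other member kept by the filter had ranges that did not overlap between high-Y and low-Y arrays over both ages, which makes 2 of 41, against 0.602% of all genes. These ranges are a description and carry no test. Slc7a12 fell between 2 and 5 weeks in KI (-4.64 ± 1.08, adjusted p = 0.0069), and in WT its change was -1.95 ± 1.03 (adjusted p = 0.15), or -2.76 without array 1 (adjusted p = 0.048). Slc7a13 was not called in KI (-2.04 ± 1.55, adjusted p = 0.417) or in WT (-2.98 ± 1.47, adjusted p = 0.124), but without array 1 the WT value was -4.12 (adjusted p = 0.0394). With the Y-linked mean as a covariate, Slc7a12 changed by -3.27 in KI (adjusted p = 0.00692) and -3.19 in WT (adjusted p = 0.00256), and Slc7a13 by -4.19 in KI (adjusted p = 0.00487). That fit uses the same Y-linked slope at every age, whereas high-Y and low-Y arrays overlapped at 2 weeks for both genes. These 3 values therefore carry a correction of the 2-week arrays that those arrays do not show, and cannot give the size of the fall.

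**Figure D2:**
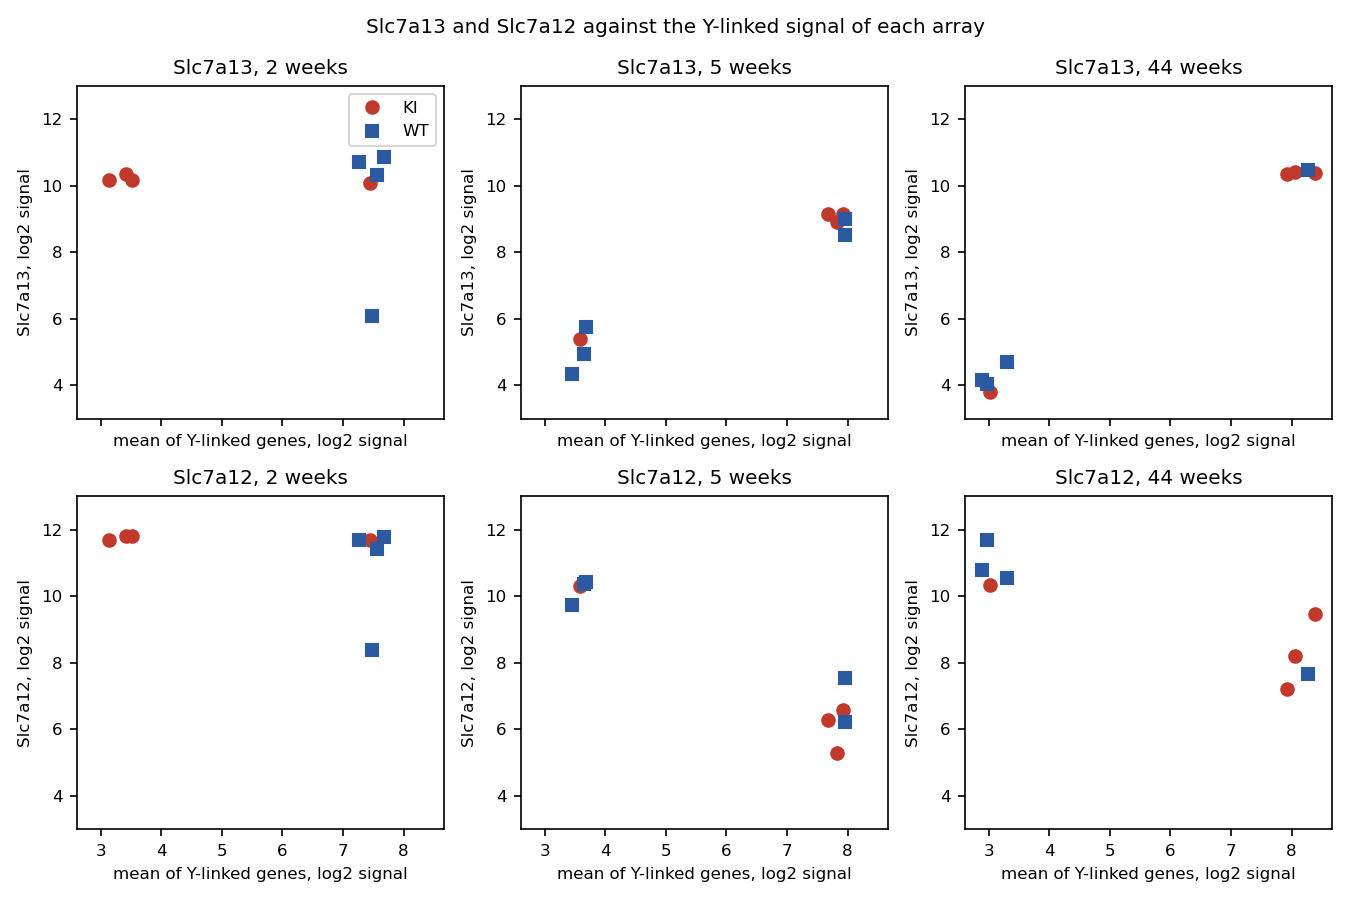
Log2 signal of Slc7a13 (top) and Slc7a12 (bottom) against the mean log2 signal of 3 Y-linked genes, at 2, 5 and 44 weeks from left to right. Red circles are KI arrays and blue squares WT arrays. At 5 and 44 weeks Slc7a13 read 8.51 or more on every high-Y array and 5.76 or less on every low-Y array, and Slc7a12 was ordered the other way.

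Of 6 importers and subunits kept that amino acid shortage can induce, 2 fell in KI (Slc1a5 and Slc7a5) and 1 in WT (Slc1a5), and none rose. Between 2 and 5 weeks 8.29% of all genes fell in KI and 21.7% in WT. Slc1a5 (ASCT2), a glutamine and neutral amino acid exchanger, ranged at 2 weeks over 6.14 to 6.84 in KI and 5.68 to 6.66 in WT, and at 5 weeks over 5.14 to 5.82 in KI and 4.32 to 5.68 in WT. It fell in KI (-0.99 ± 0.29, adjusted p = 0.0277) and WT (-1.47 ± 0.28, adjusted p = 0.000476), the KI call being lost without KI array 19, 20, 21, 24 or 25 (-1.01 to -0.86, adjusted p 0.0543 to 0.0935). The KI call was also lost with the mean of its 2 probe sets, at -0.50 (adjusted p = 0.0659), where the WT value was -0.68 (adjusted p = 0.00452). The WT value of Slc1a5 was -1.34 without WT array 1. Slc7a5 (LAT1) imports leucine and other large neutral amino acids in exchange for glutamine. Slc7a5 read 6.25, 6.15, 6.33 and 6.00 in KI and 6.13, 6.16, 5.84 and 5.85 in WT arrays at 2 weeks. At 5 weeks Slc7a5 read 5.46, 5.49, 5.48 and 5.49 in KI and 5.80, 6.05, 5.70, 6.02 and 5.50 in WT arrays, and at 44 weeks 5.32, 5.27, 4.78 and 5.72 in KI and 5.33, 5.00, 4.83 and 5.03 in WT arrays. All 2-week KI arrays lay above all 5-week KI arrays, which spanned 5.46 to 5.49, and Slc7a5 fell in KI (-0.70 ± 0.16, adjusted p = 0.00523). The WT change over that interval was -0.18 ± 0.15 (adjusted p = 0.368), and the difference between the genotypes, -0.52 ± 0.22, was not called (adjusted p = 0.203). Its heavy subunit is Slc3a2 (4F2hc). For Slc3a2 the 2-week arrays gave 9.72, 9.42, 9.46 and 9.84 in KI and 9.79, 9.36, 9.29 and 9.62 in WT. Slc3a2 at 5 weeks gave 9.69, 9.70, 9.97 and 9.46 in KI and 9.41, 9.02, 9.15, 8.78 and 10.12 in WT. Slc3a2 at 44 weeks gave 9.63, 9.33, 9.15 and 9.93 in KI and 9.50, 9.31, 9.27 and 9.71 in WT. KI and WT arrays of Slc3a2 overlapped at each age, and it was called in none of the 10 comparisons, its log2 fold changes running from -0.34 to 0.41. Slc7a1 (CAT1), the arginine and lysine importer, Slc6a9 (GlyT1), a glycine importer, and Slc38a2 (SNAT2) were not called between 2 and 5 weeks.

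Of the remaining roles, Slc38a1 (SNAT1), a glutamine importer, fell in KI (-1.20 ± 0.29, adjusted p = 0.00928), and Slc38a10 fell in WT (-0.43 ± 0.13, adjusted p = 0.0146). With the mean of its probe sets Slc38a1 changed by -0.68 in KI (adjusted p = 0.00813). In the lysosomal group Slc38a9, the arginine-sensing carrier that signals to mTORC1, rose in WT. Slc38a9 read 5.79, 6.38, 6.31 and 6.76 in KI and 6.88, 6.65, 5.93 and 6.12 in WT arrays at 2 weeks. At 5 weeks Slc38a9 read 6.65, 6.91, 6.88 and 6.66 in KI and 7.20, 7.45, 7.17, 7.17 and 6.66 in WT arrays, and at 44 weeks 6.99, 7.47, 7.44 and 6.87 in KI and 6.90, 7.51, 7.45 and 7.15 in WT arrays. The 2-week and 5-week arrays overlapped in both genotypes. The WT change was 0.74 ± 0.21 (adjusted p = 0.00971) and the KI change 0.47 ± 0.22 (adjusted p = 0.171). Without WT array 3 the WT value was 0.58 (adjusted p = 0.0516), and the mean of the 4 probe sets of Slc38a9 gave 0.35 (adjusted p = 0.0856). Slc38a7 (SNAT7), which exports glutamine from lysosomes, fell in WT (-0.46 ± 0.14, adjusted p = 0.0135). Slc43a3, which carries nucleobases despite its family, fell in WT (-1.29 ± 0.38, adjusted p = 0.0122), where its 5-week arrays read 8.83, 6.55, 6.89, 7.40 and 8.55, arrays 7, 8 and 9 being the low ones. Without those 3 arrays the value was -0.24 (adjusted p = 0.708).

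Among carriers best known from neurons Slc6a17 fell in both genotypes. For Slc6a17 the 2-week arrays gave 7.30, 7.54, 7.18 and 7.31 in KI and 6.07, 6.68, 7.27 and 7.32 in WT. Slc6a17 at 5 weeks gave 6.04, 5.51, 5.59 and 5.99 in KI and 5.82, 5.63, 4.85, 5.02 and 5.32 in WT. Slc6a17 at 44 weeks gave 6.94, 5.55, 5.52 and 6.29 in KI and 5.88, 5.45, 5.70 and 8.03 in WT. The 2-week arrays lay above the 5-week arrays in each genotype, and Slc6a17, a vesicular carrier of neutral amino acids in brain, fell in KI (-1.55 ± 0.42, adjusted p = 0.0169) and in WT (-1.51 ± 0.40, adjusted p = 0.00609). Without KI array 24 the KI value was -1.46 (adjusted p = 0.0506). The mean of its 3 probe sets gave -0.72 in KI and -0.73 in WT (adjusted p 0.034 and 0.0112). Without WT array 1 the WT values were -1.76 for Slc6a17 and -2.03 for Slc6a15. Slc6a15, a related neutral amino acid carrier, fell in WT (-1.50 ± 0.39, adjusted p = 0.00575), as did Slc1a7 (EAAT5), a glutamate carrier of retina (-0.38 ± 0.11, adjusted p = 0.0105). The osmolyte carriers Slc6a6, for taurine, and Slc6a8, for creatine, were not called, at -0.72 ± 0.29 and 0.23 ± 0.19 in KI and -0.20 ± 0.28 and 0.09 ± 0.18 in WT.

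**Figure D3:**
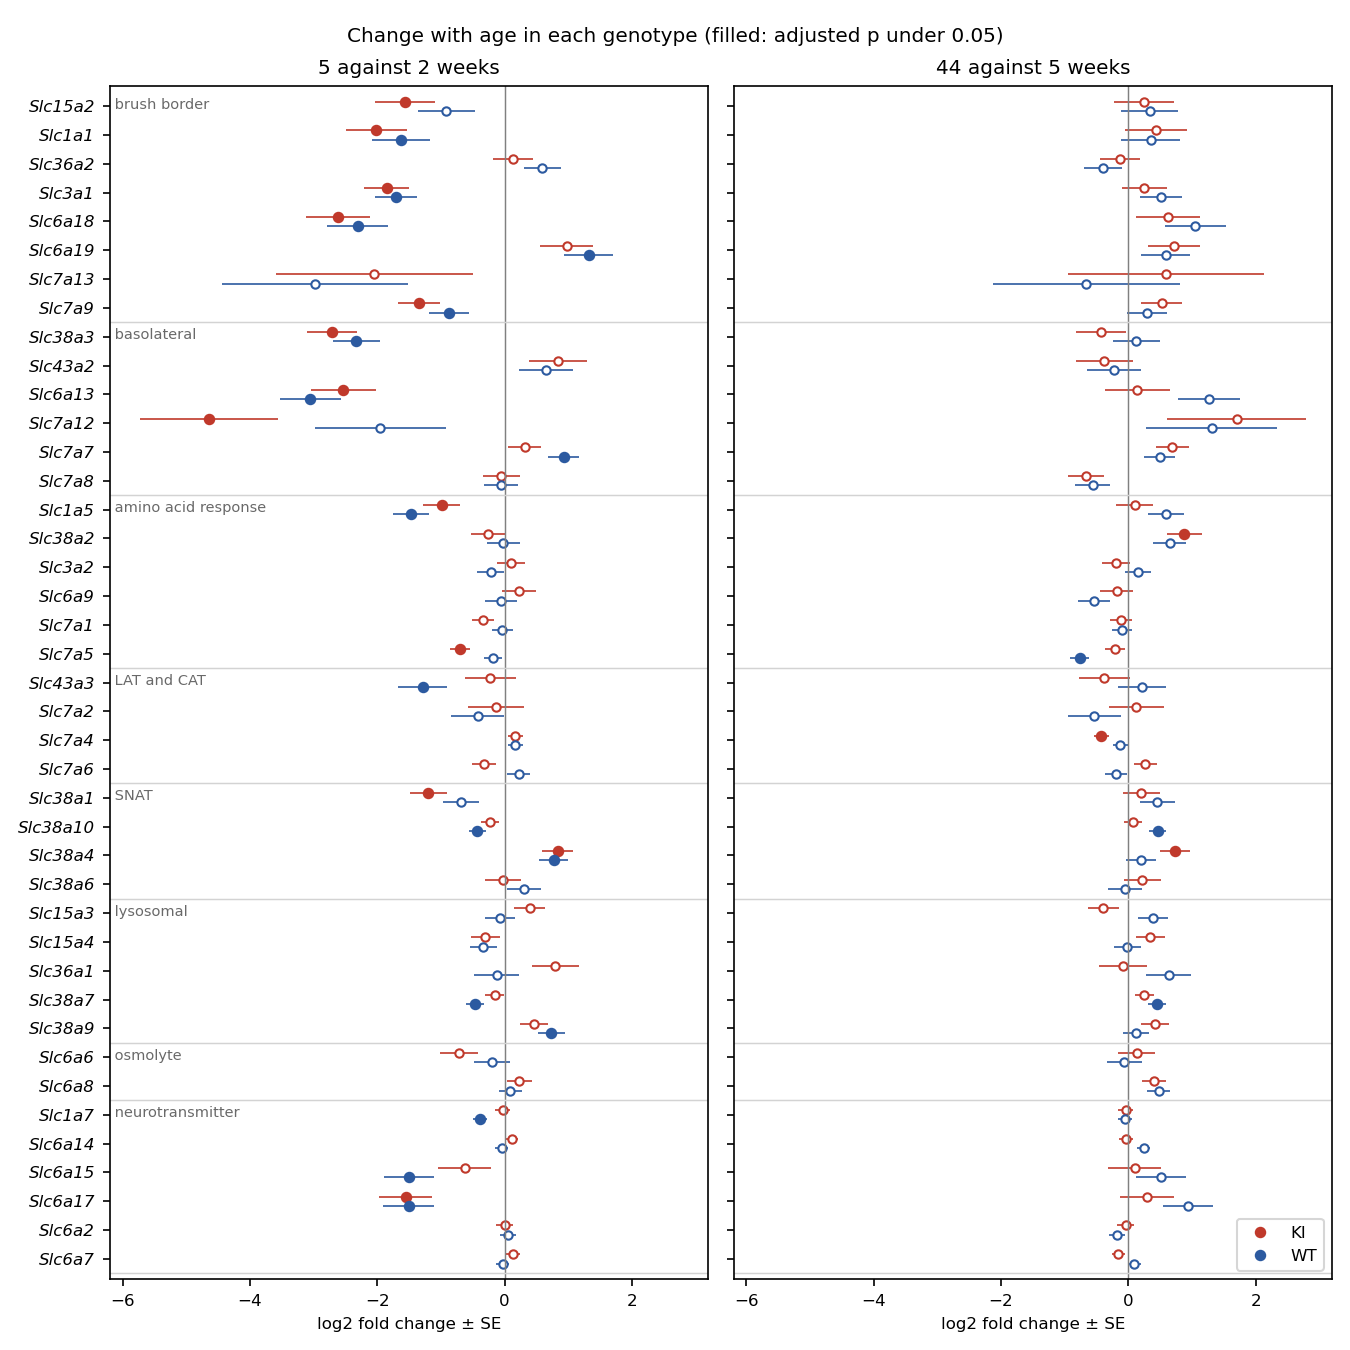
Log2 fold change of the 41 transporters kept, by role, between 5 and 2 weeks (left) and between 44 and 5 weeks (right). Red is KI and blue is WT, bars are standard errors, and filled points passed an adjusted p of 0.05. In the left panel 12 red and 13 blue filled points lie below 0, and in the right panel 1 of each.

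Between 5 and 44 weeks few transporters changed. In KI 2 rose and 1 fell of 41, where 16.8% of all genes were called (8.11% higher and 8.64% lower), and in WT 2 rose and 1 fell, where 20.1% were called (11.3% higher and 8.85% lower). None of the 6 was shared. The 5-week and 44-week arrays did not overlap for 6 of the 41 in KI and 3 in WT, against 25.8% and 12.1% of all genes. With quantile normalization 1 rose and 1 fell in each genotype, and after centring arrays on their medians, which moved the median of all genes in the WT comparison to -0.05, from 0.05, the WT calls were 0 gains and 1 loss. Without WT array 1 at 2 weeks, which enters this comparison only through the shared variance, the WT calls were 6, the additional ones being gains of Slc3a1, Slc6a13 and Slc6a18. Slc38a2 (SNAT2), the sodium-driven importer that cells induce when amino acids run short, rose in KI. Slc38a2 read 7.69, 7.55, 7.64 and 8.26 in KI and 7.77, 7.95, 7.19 and 7.42 in WT arrays at 2 weeks. At 5 weeks Slc38a2 read 7.48, 7.39, 7.60 and 7.63 in KI and 8.19, 8.06, 7.27, 7.64 and 6.66 in WT arrays, and at 44 weeks 8.46, 8.51, 8.23 and 8.42 in KI and 8.01, 7.79, 8.98 and 8.10 in WT arrays. All 44-week KI arrays lay above all 5-week KI arrays (0.88 ± 0.27, adjusted p = 0.031), and the WT change was 0.65 ± 0.26 (adjusted p = 0.0767). Of the 2 dimmer probe sets of Slc38a2, one had KI means of 6.27 at 44 weeks and 5.97 at 5 weeks and the other 6.00 and 6.04, and the mean of all 3 gave 0.38 (adjusted p = 0.0925). Leaving out any 1 of KI arrays 23, 24, 25, 31, 32 or 34 also ended the call, with adjusted p from 0.0566 to 0.0721.

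Slc7a5 fell in WT between 5 and 44 weeks (-0.77 ± 0.15, adjusted p = 0.00154), where the arrays of the 2 ages did not overlap, and changed by -0.21 ± 0.16 in KI (adjusted p = 0.377). The WT call was lost without WT arrays 7, 8 and 9 (-0.60, adjusted p = 0.0594). Slc7a4, a member of the cationic carrier branch with no settled substrate, fell in KI. Slc7a4 read 6.38, 6.29, 6.56 and 6.50 in KI and 6.61, 6.50, 6.54 and 6.37 in WT arrays at 2 weeks. At 5 weeks Slc7a4 read 6.51, 6.49, 6.85 and 6.57 in KI and 6.71, 6.78, 6.66, 6.51 and 6.69 in WT arrays, and at 44 weeks 6.18, 6.15, 6.02 and 6.38 in KI and 6.18, 6.74, 6.81 and 6.46 in WT arrays. In KI all 44-week arrays lay below all 5-week arrays, and in WT the ages overlapped. At 44 weeks Slc7a4 read 6.02 to 6.18 on the 4 high-Y arrays (KI 31, 32 and 33, WT 15). It read 6.38 to 6.81 on the 4 low-Y arrays (KI 34, WT 16, 17 and 18). At 5 weeks the high-Y arrays (6.49 to 6.71) and the low-Y arrays (6.51 to 6.85) of Slc7a4 overlapped. Its change was -0.42 ± 0.12 in KI (adjusted p = 0.0236) and -0.13 ± 0.12 in WT (adjusted p = 0.467). The KI call was lost without KI array 25, 32 or 33 (adjusted p 0.0547 to 0.0883), and with the mean of its 2 probe sets it was -0.43 (adjusted p = 0.121).

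In WT the 44-week gains were small. Slc38a10 read 11.06, 10.98, 10.88 and 10.98 in KI and 10.96, 10.84, 10.93 and 10.98 in WT arrays at 2 weeks. At 5 weeks Slc38a10 read 10.81, 10.68, 11.00 and 10.48 in KI and 10.29, 10.58, 10.19, 10.45 and 11.00 in WT arrays, and at 44 weeks 10.89, 10.61, 10.83 and 10.94 in KI and 10.84, 10.97, 10.95 and 11.08 in WT arrays. WT array 10 at 5 weeks, at 11.00, lay within the 44-week WT range and the other 4 below it. Slc38a10 rose by 0.46 ± 0.13 (adjusted p = 0.0167) in WT and changed by 0.07 ± 0.14 in KI, and the mean of its probe sets gave 0.28 in WT (adjusted p = 0.0482). At 44 weeks it read 10.61 to 10.89 on the 4 high-Y and 10.94 to 11.08 on the 4 low-Y arrays, without overlap. At 5 weeks it read 10.19 to 10.81 on high-Y and 10.45 to 11.00 on low-Y arrays, which overlapped. For Slc38a7 the 2-week arrays gave 6.41, 6.49, 6.27 and 6.63 in KI and 6.39, 6.56, 6.61 and 6.41 in WT. Slc38a7 at 5 weeks gave 6.36, 6.15, 6.34 and 6.31 in KI and 6.26, 6.06, 6.20, 5.55 and 6.08 in WT. Slc38a7 at 44 weeks gave 6.80, 6.28, 6.28 and 6.83 in KI and 6.39, 6.57, 6.37 and 6.59 in WT. All 44-week WT arrays lay above all 5-week WT arrays. Slc38a7 rose by 0.45 ± 0.14 in WT (adjusted p = 0.0274) and changed by 0.25 ± 0.15 in KI. After centring arrays on their medians neither WT value was called, at 0.36 for Slc38a10 and 0.34 for Slc38a7 (adjusted p 0.0545 and 0.0736). Without WT array 18 neither was called (0.42 and 0.41, adjusted p 0.0541 and 0.0771), and Slc38a7 was also lost without WT array 9 or 16 (0.33 and 0.42). Without WT arrays 7, 8 and 9 they were 0.31 and 0.31 (adjusted p 0.25 for each). The WT 5-week arrays enter both this comparison and the fall of Slc38a10 and Slc38a7 between 2 and 5 weeks.

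Between KI and WT podocyte RNA few transporters differed. At 2 weeks limma called 0 of 41 (0% of all genes called), with 3 members and 613 of all genes at an unadjusted p under 0.05. At 5 weeks 1 was higher and 1 lower (22% of all genes called, 14.3% higher and 7.75% lower), and with quantile normalization 0 were higher and 2 lower. At 44 weeks it called 0 (0.0251% of all genes called, 0.0167% higher and 0.00836% lower), with 1 member and 762 of all genes at an unadjusted p under 0.05, and the groups overlapped for all 41, where they did not for 2.74% of all genes. Averaged over the ages 1 was lower (5.32% of all genes called, 3.99% higher and 1.33% lower). With limma's array weights, which count variable arrays less, the numbers were 0, 10, 2 and 11. The median log2 fold change of the 41 was 0.18 at 2 weeks, 0.18 at 5 weeks and 0.07 at 44 weeks, against -0.02, 0.06 and 0.01 over all genes. At 5 weeks other cell type markers also differed: 6 of 9 leukocyte, 4 of 6 mesangial and smooth muscle, 5 of 11 endothelial, 4 of 15 proximal tubule and 3 of 12 distal tubule markers were called higher in KI. The part of these cells in the 5-week differences was not tested beyond the proximal tubule covariate given below. The actin 3′ signal minus the 5′ signal, a control for RNA quality, was 0.99 to 1.33 in KI and 1.47 to 1.63 in WT arrays at 5 weeks. All WT 5-week arrays thus lay above all KI arrays of that age and above all WT arrays at 2 weeks (1.07 to 1.30) and 44 weeks (0.78 to 1.24). The same measure for Gapdh overlapped between the 5-week groups, at 1.28 to 1.67 in KI and 0.98 to 1.91 in WT. The part of RNA quality in the comparisons with the WT 5-week arrays was not tested. The 5-week arrays enter this comparison and both age comparisons.

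Slc38a4 (SNAT4), a sodium-driven importer of neutral amino acids that is imprinted in the mouse, was the member lower in KI at 5 weeks and on average. For Slc38a4 the 2-week arrays gave 6.35, 6.39, 6.64 and 6.16 in KI and 7.97, 6.85, 6.83 and 6.79 in WT. Slc38a4 at 5 weeks gave 7.35, 7.03, 7.26 and 7.23 in KI and 7.99, 8.53, 7.53, 7.78 and 7.58 in WT. Slc38a4 at 44 weeks gave 8.17, 7.60, 8.10 and 7.93 in KI and 7.63, 8.34, 7.92 and 8.44 in WT. At 2 and at 5 weeks every KI array lay below every WT array, and at 44 weeks the groups overlapped. The KI against WT difference was -0.73 ± 0.24 at 2 weeks (adjusted p = 0.893), -0.67 ± 0.23 at 5 weeks (adjusted p = 0.0422), -0.13 ± 0.24 at 44 weeks (adjusted p = 0.976) and -0.51 ± 0.14 averaged over ages (adjusted p = 0.0372). Groups did not overlap at 2 weeks for 2.9% of all genes and at 5 weeks for 12%. WT array 1 was the highest WT array at 2 weeks, and without it the difference was -0.44 at 2 weeks and -0.41 on average (adjusted p = 0.0502). The average was lost on leaving out any 1 of 16 of the 25 arrays (-0.54 to -0.41, adjusted p 0.0502 to 0.0743). The 5-week call was lost on leaving out WT array 6, 7 or 9 or any KI array (-0.71 to -0.51, adjusted p 0.067 to 0.133), and with WT arrays 7, 8 and 9 all left out the value was -0.57 (adjusted p = 0.404). With the proximal tubule marker mean as a covariate it was -0.32 (adjusted p = 0.503). The second probe set of Slc38a4 had a mean of 5.39 in KI and 6.10 in WT at 2 weeks, of 6.40 in KI and 6.64 in WT at 5 weeks, and of 6.50 in KI and 6.87 in WT at 44 weeks, and the mean of both sets gave a 5-week difference of -0.46 (adjusted p = 0.2).

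Slc38a4 also rose with age in both genotypes. Between 2 and 5 weeks it rose by 0.83 ± 0.24 in KI (adjusted p = 0.0256) and by 0.77 ± 0.23 in WT (adjusted p = 0.0128), or 1.06 in WT without array 1. The KI call was lost without KI array 19, 20, 22, 23 or 25 (0.76 to 0.83, adjusted p 0.0552 to 0.0653) and the WT call without WT array 5 (0.67, adjusted p = 0.0528). Between 5 and 44 weeks it rose in KI (0.73 ± 0.24, adjusted p = 0.0419) and changed by 0.20 ± 0.23 in WT (adjusted p = 0.564). The KI call of that interval was lost without any 1 KI array of 5 weeks or KI array 31, 33 or 34 (0.66 to 0.78, adjusted p 0.0626 to 0.102), and the mean of both probe sets gave 0.42 (adjusted p = 0.285). The difference between those age changes was 0.53 ± 0.33 (adjusted p = 0.387). Slc38a4 was the member called lower in KI, although both calls were lost in several refits. The first of its 3 RefSeq promoters is shown (GRCm38.p6, chr15:97055907-97056206, minus strand), and none of the 3 held either motif.
Slc38a4: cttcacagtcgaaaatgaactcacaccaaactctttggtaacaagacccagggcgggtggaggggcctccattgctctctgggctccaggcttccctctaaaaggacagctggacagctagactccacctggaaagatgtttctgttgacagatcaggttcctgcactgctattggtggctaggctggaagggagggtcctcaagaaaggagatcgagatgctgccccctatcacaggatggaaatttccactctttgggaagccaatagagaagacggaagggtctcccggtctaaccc

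Slc36a1 (PAT1), a proton-driven exporter of small neutral amino acids from lysosomes, was the member higher in KI at 5 weeks. Slc36a1 read 6.75, 5.77, 6.17 and 6.53 in KI and 6.02, 6.18, 6.17 and 6.26 in WT arrays at 2 weeks. At 5 weeks Slc36a1 read 7.27, 7.52, 6.49 and 7.14 in KI and 6.62, 5.28, 6.26, 5.59 and 6.43 in WT arrays, and at 44 weeks 6.86, 7.48, 7.30 and 6.45 in KI and 8.04, 5.75, 6.33 and 6.56 in WT arrays. At 5 weeks KI array 25 (6.49) lay below WT array 6 (6.62), and the other KI arrays lay above all WT arrays. The difference was 1.07 ± 0.35 at 5 weeks (adjusted p = 0.0358), against 0.14 ± 0.37 in the 2-week and 0.35 ± 0.37 in the 44-week comparison (adjusted p 0.971 and 0.947). It was lost without WT array 7 or 9 or KI array 23, 24 or 26 (0.88 to 1.05, adjusted p 0.0713 to 0.108), and was 0.58 without WT arrays 7, 8 and 9 (adjusted p = 0.602) and 0.07 with the proximal tubule marker mean as a covariate (adjusted p = 0.881). At 5 weeks the high-Y arrays read 6.26 to 7.52 and the low-Y arrays 5.28 to 6.49, so they overlapped. At 44 weeks the 4 high-Y arrays read 6.86 to 8.04 and the 4 low-Y arrays 5.75 to 6.56. Slc15a4, Slc38a10, Slc6a9, Slc6a19, Slc7a1, Slc7a4, Slc7a12 and Slc7a13 did not overlap at 44 weeks either, and the share over all genes was not counted. Of these only Slc7a12 and Slc7a13 were also without overlap at 5 weeks. With the Y-linked mean as a covariate the 5-week difference of Slc36a1 was 0.85 (adjusted p = 0.0496).

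Where no member was called, those with the smallest p were as follows. At 2 weeks Slc7a7 (0.79 ± 0.26), Slc38a1 (0.73 ± 0.29) and Slc38a3 (0.81 ± 0.39) read higher in KI, and Slc38a4, Slc6a15 (-0.65 ± 0.41) and Slc1a7 (-0.16 ± 0.12) lower, with adjusted p from 0.893 to 0.903. For Slc38a1 every KI array, from 6.46 to 7.16, lay above every WT array, from 5.79 to 6.37. At 44 weeks Slc7a13 (2.89 ± 1.55), Slc1a7 (0.21 ± 0.12) and Slc15a4 (0.38 ± 0.22) read higher in KI, and Slc7a4 (-0.36 ± 0.12), Slc6a7 (-0.22 ± 0.11) and Slc6a14 (-0.17 ± 0.11) lower, with adjusted p from 0.687 to 0.879. These 44-week values stand beside 3 of 4 KI and 1 of 4 WT arrays with high Y-linked signal. Not only Slc7a13 but also Slc7a4 and Slc15a4 had no overlap between high-Y and low-Y arrays at that age. Slc7a4 read 6.02 to 6.18 on high-Y and 6.38 to 6.81 on low-Y arrays. Slc15a4 read 5.63 to 6.16 on high-Y and 5.22 to 5.49 on low-Y arrays. At 5 weeks the high-Y and low-Y arrays of Slc7a4 and of Slc15a4 overlapped, and the share over all genes at 44 weeks was not counted.

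**Figure D4:**
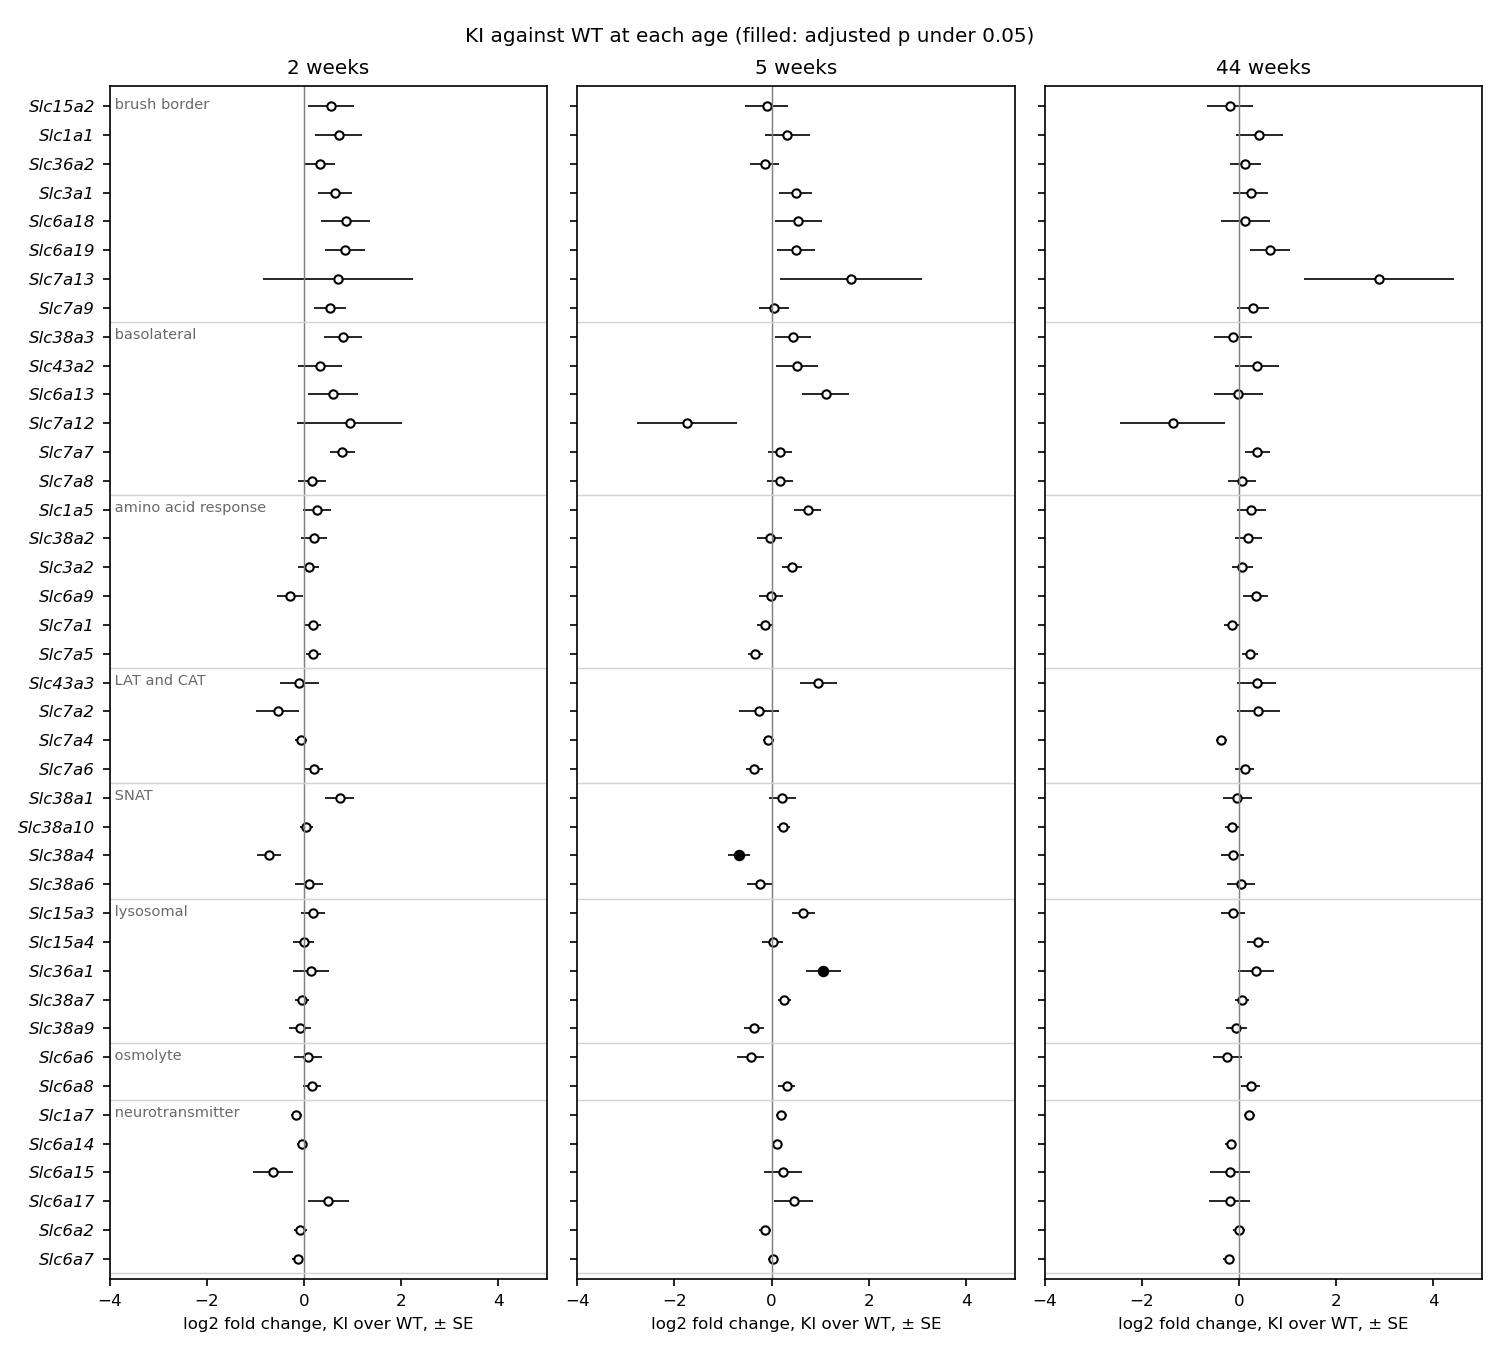
Log2 fold change of KI over WT at 2, 5 and 44 weeks for the 41 transporters kept, by role, with standard errors. Filled points passed an adjusted p of 0.05, which were Slc38a4, at -0.67, and Slc36a1, at 1.07, both at 5 weeks.

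No brush border or basolateral carrier was called between KI and WT. At 2 weeks 8 of 8 brush border carriers had positive fold changes (median 0.67), at 5 weeks 6 of 8 (median 0.41) and at 44 weeks 7 of 8 (median 0.26), and of the basolateral carriers 6 of 6, 5 of 6 and 3 of 6 did (medians 0.69, 0.30 and 0.03). All 15 proximal tubule markers were also higher in KI at each age, with medians of 0.63, 0.63 and 0.35, and 4 of them were called at 5 weeks. The mean per array of the 16 measured ran at 2 weeks over 9.46 to 10.16 in KI and 8.96 to 9.47 in WT. At 5 weeks this mean ran over 9.94 to 10.41 in KI and 8.92 to 10.07 in WT. At 44 weeks it ran over 10.24 to 10.70 in KI and 9.38 to 10.83 in WT. With the proximal tubule marker mean as a covariate the brush border medians were 0.22, -0.28 and -0.00. Without WT array 1 the 2-week brush border median was 0.05, with 5 of 8 positive, and the basolateral median 0.30, with 5 of 6 positive. For Slc6a19 the KI against WT difference ran 0.84 ± 0.41, 0.50 ± 0.39 and 0.63 ± 0.41 in order of age (adjusted p 0.893, 0.359 and 0.892). Slc6a13 differed by 1.11 ± 0.48 at 5 weeks (adjusted p = 0.0975), a difference that was called without WT array 1 at 2 weeks, which is not in that contrast but enters the shared variance (adjusted p = 0.00762).

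No member was called in the test of whether the age change differed between genotypes, at 5 against 2 weeks (0.0251% of all genes called) or at 44 against 5 weeks (0%). By limma 3 and 2 members had an unadjusted p under 0.05, and with array weights 5 and 2 were called. Slc7a5 had the smallest p of the members that were higher in KI at 44 against 5 weeks (0.56 ± 0.22, adjusted p = 0.174) and of those lower at 5 against 2 weeks. A fall called in KI and not in WT, or the other way round, is therefore not shown to differ between them. The KI changes at 5 against 2 weeks had the sign of the WT changes for 32 of 41 members, and those at 44 against 5 weeks for 28.

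The 18 members left out by the filter had mean signals of 4.56 or less, among them Slc43a1 (LAT3), a facilitated leucine carrier described in mouse podocytes. Slc43a1 read 4.60, 5.12, 4.67 and 4.67 in KI and 5.20, 4.73, 4.26 and 4.80 in WT arrays at 2 weeks. At 5 weeks Slc43a1 read 4.19, 4.32, 4.18 and 4.10 in KI and 4.56, 4.22, 4.32, 4.12 and 4.84 in WT arrays, and at 44 weeks 4.21, 4.35, 4.45 and 4.30 in KI and 4.18, 4.10, 3.70 and 4.33 in WT arrays. The 2-week KI arrays lay above the 5-week KI arrays, and in WT they overlapped. Fitted with no filter, Slc43a1 fell between 2 and 5 weeks in KI (-0.57 ± 0.17, adjusted p = 0.0435). Slc6a4, the serotonin transporter, was at 4.85 to 5.87 in KI and 3.84 to 5.63 in WT arrays at 2 weeks, and at 3.61 to 4.62 in KI and 3.56 to 3.92 in WT arrays at 5 weeks. It fell in KI (-1.14 ± 0.34, adjusted p = 0.0365) and in WT (-1.34 ± 0.32, adjusted p = 0.00412), and rose by 0.94 ± 0.32 between 5 and 44 weeks in WT (adjusted p = 0.0493). Slc6a3, the dopamine transporter, moved by -0.30 ± 0.08 in KI and -0.28 ± 0.08 in WT at 5 against 2 weeks (adjusted p 0.0201 and 0.00815), within a range of 3.60 to 4.20 on all arrays, and by 0.23 ± 0.08 in WT at 44 against 5 weeks (adjusted p = 0.0449). The other 15 were called in no comparison, Slc7a11 (xCT), the cystine importer, reading 3.19 to 3.64. The member just inside the filter was Slc6a2, with a mean of 4.61, and the one just outside Slc6a4, with 4.56.

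Partner proteins and peptidases work beside the brush border carriers. Of 9 kept, 4 fell and none rose in KI between 2 and 5 weeks, where 13.7% of all genes were called, and 5 fell and 2 rose in WT, where 33.9% were. Slc6a20a, the proline carrier of the brush border, read 8.36, 8.02, 8.52 and 7.91 in KI and 3.74, 8.76, 8.89 and 7.84 in WT arrays at 2 weeks, and at 5 weeks 4.17, 4.19, 3.38 and 4.32 in KI and 4.39, 3.68, 4.16, 4.00 and 4.24 in WT arrays. It fell in KI (-4.19 ± 0.71, adjusted p = 0.000617) and in WT (-3.21 ± 0.67, adjusted p = 0.00113), and WT array 1, at 3.74, was below the other WT arrays of its age. The brush border peptidases Anpep (-2.20 in KI, -3.02 in WT), Mep1a (-2.03 and -2.14) and Mep1b (-2.58 and -2.05) fell in both genotypes. With WT array 1 left out the WT values were -4.40 for Slc6a20a, -3.48 for Anpep, -2.91 for Mep1a and -3.07 for Mep1b. The peptidases Enpep (0.36) and Dpp4 (0.26) rose in WT.

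Of 19 genes of the amino acid response, in which the kinase GCN2 and the factor ATF4 answer a shortage of amino acids, 4 were higher and 1 lower in KI than in WT at 5 weeks, and none was called at 2 or 44 weeks. These 5 of 19 stand beside 22% of all genes called at 5 weeks, a share near theirs. Higher were Atf4 itself (0.45 ± 0.14, adjusted p = 0.0256), Ddit3 (0.76), which encodes the stress factor CHOP, and the enzymes Shmt2 (1.21) and Aldh18a1 (0.58). Cebpg, a partner of ATF4, was lower (-0.45). None of the 6 kept transporters that this response induces was called at 5 weeks, Slc1a5 being nearest (0.75 ± 0.28, adjusted p = 0.0572). With age, Phgdh, the first enzyme of serine synthesis, fell between 2 and 5 weeks in KI (-1.62) and WT (-1.11), and Trib3, an ATF4 target, rose between 5 and 44 weeks in KI (0.72) and WT (0.71). Asns, the asparagine synthetase, fell between 2 and 5 weeks (-0.58) and rose between 5 and 44 weeks (0.66) in KI, 2 comparisons that share the KI 5-week arrays.

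Of 18 genes through which mTORC1 senses amino acids, 6 were higher and 2 lower in KI at 5 weeks. Nprl2, part of the GATOR1 brake, was higher by 1.01 ± 0.16 (adjusted p = 0.00144), its KI arrays reading 8.94, 9.00, 9.03 and 9.31 and its WT arrays 7.91, 7.59, 8.02, 8.27 and 8.52. Lamtor4 (1.22) and Lamtor2 (0.77), of the lysosomal anchor, and Rptor (0.94), the raptor subunit, were also higher, as were 2 others. Lamtor1 (-0.26) and Rragc (-0.28) were lower. With age none of the 18 was called in KI between 2 and 5 weeks, where 13.7% of all genes were, and 5 fell and 3 rose in WT, where 33.9% were called. Between 5 and 44 weeks 3 rose and 5 fell in KI and 5 rose and 2 fell in WT, where 16.8% of all genes were called in KI and 20.1% in WT. Nprl2 was the one called for genotype on average over ages (0.45 ± 0.10, adjusted p = 0.0213). The share of all genes called on average over ages was 5.32%, and at 5 weeks 22%, and with WT arrays 7, 8 and 9 left out 1 gene of all was called at 5 weeks, against 2638 with them.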

How the data were processed

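The authors deposited 1 table of log2 values, with 1 value per probe set and array for 45141 probe sets, running from 1.86 to 13.617, with array medians within 0.17 of each other. Per the labels' protocols, polysomal RNA was purified by TRAP and amplified in 1 round with the NuGen WT-Ovation kit before biotin labelling. The summarization and normalization behind the values are not given in the sources used here, nor is any batch. No normalization was added. The platform annotation gave 1 gene symbol for 28898 probe sets and several for 551, and did not list 15692. Only probe sets with 1 symbol were used, and each gene was read from the one with the highest mean over all arrays, which left 17097 genes. Another probe set of the gene can give another value, and 27 of the 59 transporters had more than 1. The filter kept 11968 genes with a mean over all arrays above 4.60, the limit that leaves out the dimmest 30%.

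limma 3.58.1 in R 4.3.3 fitted 6 group means to all 25 arrays (19 residual and 3.05 prior degrees of freedom), with contrasts for genotype at each age, for age in each genotype and for the difference between those age changes. P-values were adjusted by the Benjamini-Hochberg method over all genes kept. They measure the spread between arrays, which may be technical, and 4 or 5 arrays a group limit their precision. The KI allele is a point mutation, so the level of Actn4 does not check the labels. Tables and figures were made in Python 3.11.15 with pandas 2.3.3, numpy 2.4.6 and matplotlib 3.10.9.

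Transporters, roles and pathway and marker lists were chosen with earlier results of these data known. Values on every array are given for 7 transporters picked by name, for the called members of each genotype comparison and for up to 6 members with the largest called change each way in each age comparison. For other members, ranges or fold changes are given. Alternatives were quantile normalization, centring, other filters, the mean of a gene's probe sets, a trended robust prior, array weights, fits of only the arrays compared, covariates, and left-out arrays. Promoters are RefSeq entries of GRCm38.p6.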

Additional observations from a re-analysis of the deposited data

Results flagged for a closer look

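The 20 transporters given on every array make 120 groups of 4 or 5 arrays, and in 11 of them 1 array lay farther from the rest than Dixon's 95% limit allows. Chance gives about 1 in 20 groups.

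WT array 1 at 2 weeks accounts for 5 of the 11. It read 8.41 for Slc1a1, where the other WT arrays of its age read 11.29 to 11.68. It read 6.68 for Slc6a13 (others 9.86 to 10.13), 8.38 for Slc7a12 (others 11.41 to 11.78) and 6.08 for Slc7a13 (others 10.32 to 10.86). For Slc38a4 it was the high one, at 7.97, where the others read 6.79 to 6.85. In each of these cases it differed from them in the direction of the WT 5-week mean.

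Slc7a13 accounts for 3 more. KI array 25 at 5 weeks read 5.40, against 8.90 to 9.16 on the other KI arrays, and KI array 34 at 44 weeks read 3.80, against 10.35 to 10.42. WT array 15 at 44 weeks read 10.49, against 4.03 to 4.71 on the other WT arrays. Each is the array of its group whose Y-linked signal differs from the others.

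The remaining 3 were Slc38a7 on WT array 9 at 5 weeks (5.55, others 6.06 to 6.26), Slc6a17 on WT array 18 at 44 weeks (8.03, others 5.45 to 5.88) and Slc43a1 on KI array 20 at 2 weeks (5.12, others 4.60 to 4.67).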

How the results depend on the processing

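The 39 member changes called kept their direction in all 1388 refits and their call in 1261, and 127 lost it. Many of these refits left out an array of a group not compared. Such a refit leaves the fold change as it was and cannot turn its direction, so these totals do not measure how firm a call is. Counts of called members moved by more than 1.5 times as follows. For KI against WT at 5 weeks, 2 as reported, the count was 1 with no filter, with 50% of genes left out or with the Y-linked covariate, 10 with array weights, and 0 with only the arrays compared, with the proximal tubule covariate or without WT arrays 7, 8 and 9. For KI against WT at 44 weeks, 0 as reported, it was 2 with array weights. For the average over ages, 1 as reported, it was 11 with array weights, and 0 with the mean of probe sets, the proximal tubule covariate or without WT arrays 7, 8 and 9. For WT at 5 against 2 weeks, 17 as reported, it was 11 with 50% of genes left out, 10 with only the arrays compared and 4 without WT arrays 7, 8 and 9. For WT at 44 against 5 weeks, 3 as reported, it was 5 with no filter, 12 with array weights, and 1 with centring, with 50% of genes left out, with only the arrays compared or without WT arrays 7, 8 and 9. Without WT arrays 7, 8 and 9 the 1 called was Slc7a8 (-1.18, adjusted p = 0.0237), and the 3 reported calls were lost. For KI at 5 against 2 weeks, 13 as reported, it was 8 with 50% of genes left out. For KI at 44 against 5 weeks, 3 as reported, it was 1 with the mean of probe sets, 5 with array weights and 6 with only the arrays compared. For the difference between age changes, 0 as reported, it was 5 (5 against 2 weeks) and 2 (44 against 5 weeks) with array weights. With 50% of genes left out, no called member still in the fit lost its call. The lower counts in that setting came from called members that the filter removed, such as Slc7a5 and Slc38a3 in KI. The cause of the other moves was not tested.

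With 1 array left out at a time, counts ran from 0 to 8 for KI against WT at 5 weeks (0 without WT array 7 or 9 or KI array 23, 24 or 26, and 8 without WT array 10), 0 to 6 on average over ages (6 without WT array 15), 0 to 0 at 2 and 44 weeks, 15 to 20 for WT at 5 against 2 weeks, 1 to 6 for WT at 44 against 5 weeks, 10 to 14 for KI at 5 against 2 weeks, 0 to 4 for KI at 44 against 5 weeks, and 0 to 1 for the difference at 44 against 5 weeks. No paired analysis was possible because the array numbers in the labels are unique and no number is shared between groups. With 4 or 5 arrays a group and dim signals for 18 of 59 members, small changes could be missed.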
